A study of Homo sapiens with 4 samples.

Results

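The 9 keratins of stratified epithelium, KRT4, KRT5, KRT6A, KRT6B, KRT13, KRT14, KRT15, KRT16 and KRT17, were chosen by gene symbol among the 60487 genes listed in each of 4 RNA-seq libraries. Each symbol had 1 row, and all 9 passed the filter of at least 1 FPKM (fragments per kilobase of transcript, scaled to the mapped fragments of the library) in at least 1 library. The libraries came from HCC1937, a long-established breast carcinoma line from a human tumour, in which BRCA1 is not functional. The wtBRCA1 line, labelled wild type for BRCA1, was sampled under OTX-015, a drug that blocks the bromodomains of BET chromatin readers and is also called birabresib, and under the solvent DMSO. The vector line, labelled BRCA1 -/-, was sampled under the same agents. Dose, time, and whether either line is 1 clone are not given in the sources used here. Each group had 1 library, so no difference between a pair of libraries has a replicate check.

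Keratins form the intermediate filaments of epithelial cells as obligate pairs of a type I and a type II protein. In stratified epithelia, basal cells carry KRT5 (type II) with KRT14 or KRT15 (type I). Suprabasal cells of internal stratified linings carry KRT4 (type II) with KRT13 (type I), and KRT6A, KRT6B, KRT16 and KRT17 are known for wounded, hyperproliferative and appendage epithelium. KRT5, KRT14 and KRT17 are widely used as markers of basal-like breast cancer. The type II genes lie in a cluster on chromosome 12 and the type I genes in a cluster on chromosome 17, all on the minus strand.

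FPKM summed to between 909314 and 1496107 per library, with the higher sums in the OTX-015 libraries. The top 10 genes took 33.8% and 39.2% of it in the OTX-015 libraries of wtBRCA1 and vector cells, against 15.3% and 17.4% in their DMSO libraries. BRCA1 was listed at 2712 FPKM under OTX-015 and 171 under DMSO in the wtBRCA1 line. In the vector line it was at 40.8 and 37.2, so the line labels held in both treatments. The OTX-015 level of BRCA1 was 15.8 times the DMSO level in wtBRCA1 cells and 1.10 times in vector cells. In wtBRCA1 cells, a difference under OTX-015 therefore cannot be told apart from one that goes with this change in BRCA1. The epithelial markers EPCAM, CDH1, KRT7, KRT8, KRT18 and CLDN4 were above 0 in every library. COL1A2, COL3A1, DCN and PDGFRB of the fibroblast markers, CD3E of the leukocyte markers and VWF and KDR of the endothelial markers were listed at 0 in every library. The summed level of the 6 fibroblast markers, nearly all of it COL1A1, was 8.39 and 9.78 FPKM in wtBRCA1 cells under OTX-015 and DMSO and 4.01 and 2.11 in vector cells, and its part in the line differences was not tested. Of the leukocyte markers, CD68, which cells other than leukocytes also carry, was at 44.5 and 21.9 FPKM in wtBRCA1 cells under OTX-015 and DMSO and at 24.8 and 15.5 in vector cells, CSF1R reached 1.73 and LYZ 0.438. Of the endothelial markers, PECAM1 was at 2.11 and 3.15 FPKM in wtBRCA1 cells and at 0.67 and 4.88 in vector cells, and CDH5 reached 2.15. LUM, a fibroblast marker, was above 0 only in vector cells under DMSO, at 0.251 FPKM. The part of these markers in the results was not tested. Of the keratins of terminally differentiated skin, KRT1, KRT2, KRT76, KRT77 and KRT79 were listed at 0 in every library. KRT10 was present, at 9.52 and 13.2 FPKM in the wtBRCA1 line under OTX-015 and DMSO and at 9.55 and 31.2 in the vector line. In vector cells under DMSO it lay above KRT5 (29.4 FPKM). In these bulk samples, fewer cells carrying a keratin and less of its RNA per cell cannot be told apart.

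The summed level of the 9 keratins was of the same order in all libraries, while its make-up differed between the lines. The sum was 2722 FPKM under OTX-015 and 2902 under DMSO in wtBRCA1 cells, and 3495 under OTX-015 and 3498 under DMSO in vector cells, which is 0.184%, 0.302%, 0.234% and 0.385% of the summed FPKM of these libraries. KRT13 made up 62.9% of the keratin sum in vector cells under OTX-015 and 89.8% under DMSO, against 0.079% and 0.089% in wtBRCA1 cells. In wtBRCA1 cells under DMSO the sum was divided among KRT5 (33.8%), KRT17 (31.7%), KRT16 (17.1%) and KRT15 (14.6%). KRT16 and KRT17 together took 76.5% of the sum in wtBRCA1 cells under OTX-015 and 48.8% under DMSO, and 32.2% and 5.82% in vector cells.

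**Figure D1:**
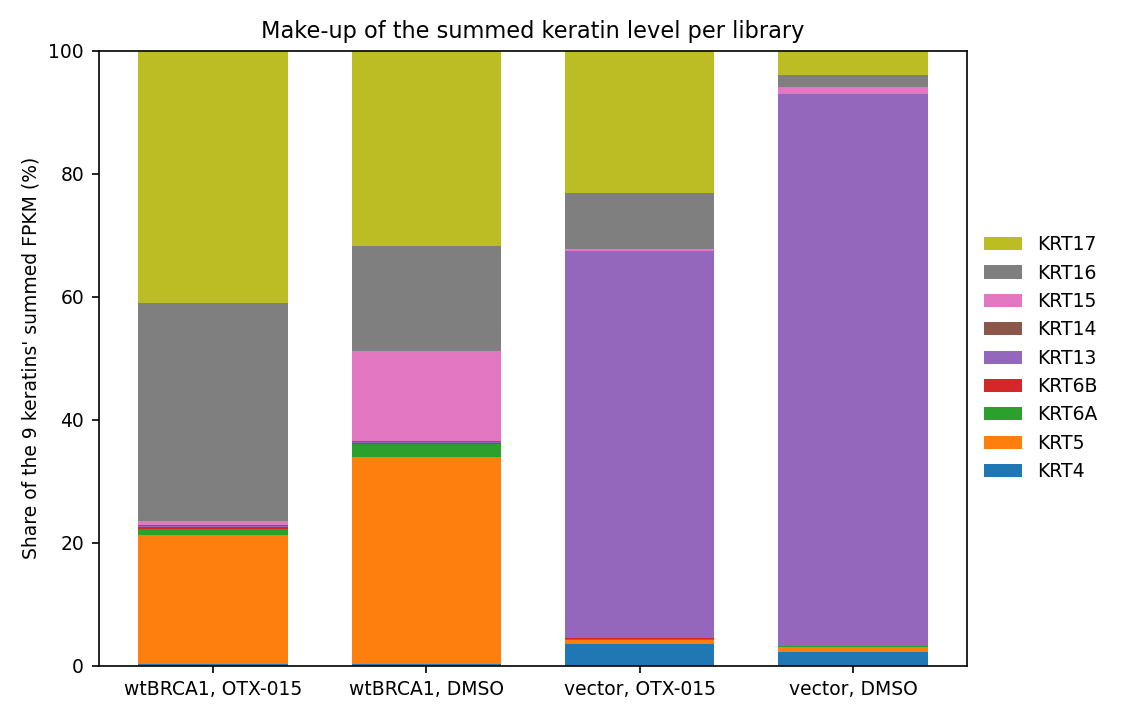
Share of each keratin in the summed FPKM of the 9 keratins (vertical axis, percent) in each of the 4 libraries, 1 bar per library. KRT13 fills 62.9% and 89.8% of the vector bars, whereas KRT5, KRT16 and KRT17 fill most of the wtBRCA1 bars.

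Type II members, as listed, were the smaller part of the keratin sum in every library. Their sum was 614 FPKM under OTX-015 and 1051 under DMSO in wtBRCA1 cells, and 157 and 112 FPKM in vector cells. The type I sum was 2108 and 1851 FPKM in wtBRCA1 cells and 3339 and 3386 in vector cells. The type II to type I ratio was thus 0.291 and 0.568 in wtBRCA1 cells under OTX-015 and DMSO, and 0.047 and 0.033 in vector cells. Other entries listed at the same loci are not in these sums. The entry at the KRT5 locus was at 6954 and 9019 FPKM in wtBRCA1 cells, above the type I sum, and at 1124 and 750 in vector cells, below it. The entry at the KRT13 locus was at 9.54 and 16.6 FPKM in wtBRCA1 cells and at 13558 and 18038 in vector cells. Without KRT13 the summed level of the members was 2720 and 2900 FPKM in wtBRCA1 cells and 1296 and 357 in vector cells, so the near equality of the sums between the lines rested on KRT13.

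The comparison of the lines asks how restored BRCA1 goes with keratin expression, in which BRCA1 and anything else that sets these 2 lines apart cannot be told apart. All 9 members were at least 2-fold apart under DMSO on the log2(FPKM + 1) scale (26.5% of all genes), 7 higher (14.8% of all 18294 genes kept) and 2 lower (11.7%) in wtBRCA1 cells. Under OTX-015, 6 were (27.7% of all genes), 4 higher (15%) and 2 lower (12.6%). In the limma fit over both treatments 7 of 9 passed (8.28% of all genes), and KRT5, KRT6A, KRT15, KRT16 and KRT17 rose (5 of 9, against 4.88% of all genes) and KRT4 and KRT13 fell (2 of 9, against 3.41%). The median difference of the 9 was 0.74 log2 under OTX-015 and 2.74 under DMSO, against 0.00057 and 0.038 over all genes kept. The limma p-values rest on a single residual (1 degree of freedom) for each gene, with variances pooled across genes. They set the mean line difference against this pooled residual, not against the spread between cultures. A pass does not mean that the difference was alike under both treatments. KRT17 passed with 0.46 log2 under OTX-015 and 2.74 under DMSO.

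**Figure D2:**
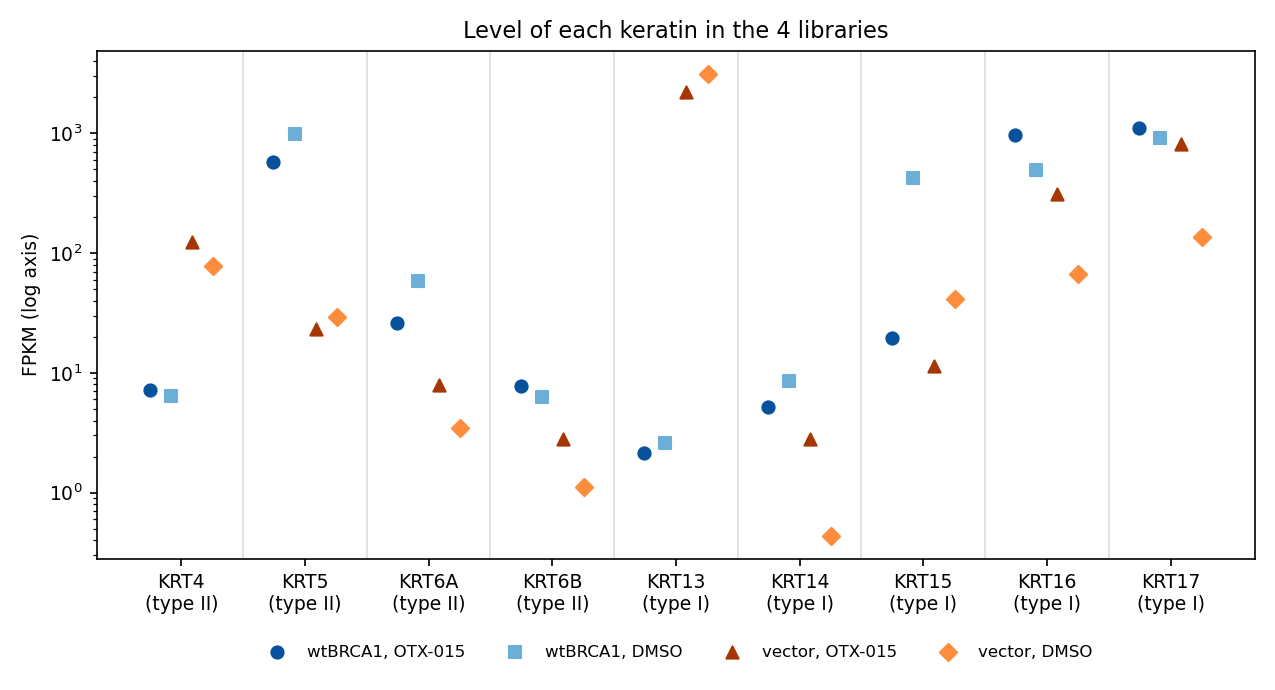
FPKM (vertical log axis) of each of the 9 keratins in the 4 libraries, 1 point per library. KRT4 and KRT13 lie lower in both wtBRCA1 libraries than in both vector libraries, and KRT5, KRT6A, KRT6B, KRT14, KRT16 and KRT17 lie higher, whereas KRT15 overlaps. The share of all genes that separate in this way was not counted.

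KRT13 and its partner KRT4, the pair of suprabasal internal linings, were lower together in wtBRCA1 cells. KRT13 (ENSG00000171401, chromosome 17, 41500981 to 41505705, hg38) was at 2.15 FPKM under OTX-015 and 2.58 under DMSO in wtBRCA1 cells, and at 2199 and 3141 FPKM in vector cells. In vector cells it stood above 99.8% of the genes kept under OTX-015 and 99.9% under DMSO, and in wtBRCA1 cells above 28.3% and 30.8%. It fell by 9.61 ± 0.28 on the log2 scale (SE, limma adjusted p = 2.05e-07). KRT4 (ENSG00000170477, chromosome 12, 52806549 to 52814551) was at 7.19 FPKM under OTX-015 and 6.35 under DMSO in wtBRCA1 cells, and at 123 and 78.0 in vector cells. It fell by 3.67 ± 0.33 on the log2 scale (limma adjusted p = 0.000323). Neither gene's line groups overlapped. For this and later statements on overlap, the share over all genes was not counted, so they are descriptions only. KRT13 exceeded KRT4 by 17.9 and 40.3 times in vector cells under OTX-015 and DMSO, whereas in wtBRCA1 cells the order as listed was turned, with KRT13 at 0.299 and 0.406 times KRT4 per length. The entry at the KRT13 locus was at 9.54 and 16.6 FPKM in wtBRCA1 cells, above KRT4. The turned order may therefore depend on how reads were divided between KRT13 and this entry.

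KRT5, the type II keratin of basal cells, was the member that rose most in wtBRCA1 cells. KRT5 (ENSG00000186081, chromosome 12, 52514575 to 52520687) was at 573 FPKM under OTX-015 and 980 under DMSO in wtBRCA1 cells, and at 23.2 and 29.4 FPKM in vector cells. Both wtBRCA1 libraries lay far above both vector libraries, at 24.7 times under OTX-015 and 33.3 times under DMSO. The effect was 4.79 ± 0.27 log2 (SE, limma adjusted p = 3.73e-05). The calls for KRT4, KRT5 and KRT13 were kept in all 10 other settings of the processing that were tried.

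Since KRT4 and KRT5 lie in 1 cluster and differed between the lines in opposite directions, their RefSeq promoters are shown (GRCh38.p14, minus strand, 250 bases before to 50 after the start, 5′ to 3′). RefSeq sequences were matched for these 2 of the 9 members. KRT4 has chr12:52814067-52814366 and KRT5 has chr12:52520345-52520644. Capitals mark a match to the AP-2 motif GCCNNNGGC.
KRT4: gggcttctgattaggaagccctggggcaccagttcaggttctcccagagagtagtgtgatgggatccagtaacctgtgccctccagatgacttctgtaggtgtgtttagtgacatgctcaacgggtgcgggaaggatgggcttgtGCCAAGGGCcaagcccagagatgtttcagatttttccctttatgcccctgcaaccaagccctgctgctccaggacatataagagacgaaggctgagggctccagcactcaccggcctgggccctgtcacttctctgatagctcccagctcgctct
KRT5: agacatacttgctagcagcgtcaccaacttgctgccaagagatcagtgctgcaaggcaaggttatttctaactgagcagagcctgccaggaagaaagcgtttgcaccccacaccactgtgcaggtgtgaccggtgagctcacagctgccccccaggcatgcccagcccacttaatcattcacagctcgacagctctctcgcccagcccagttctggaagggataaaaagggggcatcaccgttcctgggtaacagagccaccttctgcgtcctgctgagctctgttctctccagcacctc
The KRT4 window held 1 such match, 105 bases before the start, and 23.2% of 35116 RefSeq promoters of this length held at least 1. Neither window held TATAAA (11.5% of promoters), the AP-1 motif TGANTCA (7.71%) or the GC box GGGCGG (45.0%). Motifs were read on both strands, and a match or its absence describes only the letters of the window.

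The type I partners of KRT5 differed from it in level. KRT14 (ENSG00000186847, chromosome 17, 41582279 to 41586921), the usual partner of KRT5 in basal cells, was low in every library, at 5.16 FPKM under OTX-015 and 8.53 under DMSO in wtBRCA1 cells, and at 2.82 and 0.438 in vector cells. The wtBRCA1 libraries lay above the vector libraries without overlap, but the difference of 1.71 ± 0.52 log2 did not pass (SE, limma adjusted p = 0.0768). KRT5 exceeded KRT14 per length by 111 and 115 times in wtBRCA1 cells, and by 8.21 and 67.2 times in vector cells.

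KRT15 (ENSG00000171346, chromosome 17, 41513743 to 41522529), a type I keratin of basal cells, was at 19.5 FPKM under OTX-015 and 422 under DMSO in wtBRCA1 cells, and at 11.3 and 41.1 in vector cells. The line groups overlapped, since the wtBRCA1 library under OTX-015 lay below the vector library under DMSO. Its line effect of 2.03 ± 0.52 log2 (SE, limma adjusted p = 0.0408) was past the threshold only as fitted, and in the 10 other settings the adjusted p ran from 0.0664 to 0.635. Under DMSO, KRT15 was 0.431 times the KRT5 level in wtBRCA1 cells and 1.40 times it in vector cells. Under OTX-015 it was 0.034 times KRT5 in wtBRCA1 cells and 0.489 times in vector cells.

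KRT16 and KRT17, type I keratins of activated epithelium, were higher in wtBRCA1 cells, where both stood above at least 98.8% of the genes kept. KRT16 (ENSG00000186832, chromosome 17, 41609778 to 41615899) was at 963 FPKM under OTX-015 and 497 under DMSO in wtBRCA1 cells, and at 315 and 66.7 in vector cells. The groups did not overlap, and the line effect was 2.25 ± 0.30 log2 (SE, limma adjusted p = 0.0027). KRT17 (ENSG00000128422, chromosome 17, 41619437 to 41624842) was at 1118 FPKM under OTX-015 and 920 under DMSO in wtBRCA1 cells, and at 811 and 137 in vector cells. Its lowest library was that of vector cells under DMSO, and the other 3 lay near each other. Its line effect of 1.60 ± 0.42 log2 (SE, limma adjusted p = 0.0446) was lost in all 10 other settings, where the adjusted p ran from 0.0788 to 0.519. KRT17 exceeded KRT16 in every library, by 1.16 and 1.85 times in wtBRCA1 cells under OTX-015 and DMSO and by 2.58 and 2.05 times in vector cells.

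The type II keratins known to pair with them, KRT6A and KRT6B, were much lower. KRT6A (ENSG00000205420, chromosome 12, 52487174 to 52493257) was at 26.3 FPKM under OTX-015 and 58.1 under DMSO in wtBRCA1 cells, and at 7.97 and 3.43 in vector cells. The groups did not overlap, and KRT6A rose by 2.67 ± 0.48 log2 (SE, limma adjusted p = 0.0102), a call kept in 6 of 10 other settings (adjusted p from 0.0243 to 0.184). KRT6B (ENSG00000185479, chromosome 12, 52446651 to 52452126) was at 7.84 and 6.26 FPKM in wtBRCA1 cells and at 2.82 and 1.11 in vector cells. Its groups did not overlap either, and its difference of 1.5 ± 0.41 log2 did not pass (SE, limma adjusted p = 0.0522). KRT16 exceeded KRT6A per length by 36.6 and 8.56 times in wtBRCA1 cells and by 39.5 and 19.4 times in vector cells. KRT17 exceeded KRT6B by 143 and 147 times in wtBRCA1 cells and by 287 and 123 times in vector cells.

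The low values of KRT6A and KRT6B are uncertain, because these genes share sequence with each other and with KRT6C. Other entries are also listed at their loci, and whether those share sequence with KRT6A or KRT6B could not be checked here. The coding sequences of KRT6A and KRT6B in GENCODE 29, each of 1692 bases without the stop codon, differ at 42 positions, KRT6A and KRT6C at 35, and KRT6B and KRT6C at 25. To show how little sets them apart, the coding window with the most differences is given, bases 628 to 747 from the start codon, 5′ to 3′ on the coding strand (chromosome 12). Capitals mark the 10 positions at which the 3 genes are not all alike.
KRT6A: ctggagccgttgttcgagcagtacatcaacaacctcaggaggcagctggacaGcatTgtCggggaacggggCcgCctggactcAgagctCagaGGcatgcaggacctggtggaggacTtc
KRT6B: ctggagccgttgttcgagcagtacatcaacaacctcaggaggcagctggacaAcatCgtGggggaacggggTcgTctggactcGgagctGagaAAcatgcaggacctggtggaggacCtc
KRT6C: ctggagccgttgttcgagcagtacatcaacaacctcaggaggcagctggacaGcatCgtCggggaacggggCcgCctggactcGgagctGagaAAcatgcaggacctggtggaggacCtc
Of the 50-base windows of the longest coding transcript, 39.1% in KRT6A and 47.1% in KRT6B occurred unchanged in a transcript of another gene, mostly KRT6C. KRT6C itself was listed at 2.25 and 0.569 FPKM in wtBRCA1 cells under OTX-015 and DMSO and at 0 in both vector libraries.

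For type I members the windows shared with any other gene, pseudogenes included, were 23.8% in KRT14, 22.0% in KRT16 and 16.0% in KRT17. KRT14 shared 11.2% with KRT16, while KRT17 shared 0.999% with KRT16, 0.874% with KRT14 and 9.36% with the pseudogene KRT17P1. KRT14 and KRT16 have in common a run of 158 coding bases, bases 310 to 467 of KRT14 from its start codon on chromosome 17, the longest between these 2 genes.
KRT14 and KRT16: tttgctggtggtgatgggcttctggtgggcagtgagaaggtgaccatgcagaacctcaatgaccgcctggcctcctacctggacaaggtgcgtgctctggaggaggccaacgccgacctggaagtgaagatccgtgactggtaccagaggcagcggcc
The corresponding share was 3.99% in KRT5, 1.03% in KRT13, 0.328% in KRT15 and 0 of 2527 windows in KRT4. Pseudogenes of KRT16 and KRT17 were mostly at or near 0. The exceptions were KRT17P3, at 39.6 and 29.5 FPKM in wtBRCA1 cells under OTX-015 and DMSO and at 29.1 and 4.11 in vector cells, and KRT17P2, at 18.1 FPKM in vector cells under OTX-015 and listed at 0 in the other 3 libraries. KRT17 and KRT17P3 had the same order of levels over the 4 libraries. The sources used here do not state how reads that fit several genes were assigned.

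At 4 of the 9 loci the files list a clone-named entry with a higher FPKM than the keratin itself. AC055736.3, at the KRT6A locus, was at 2659 FPKM under OTX-015 and 2705 under DMSO in wtBRCA1 cells, and at 1306 and 449 in vector cells, which is between 46.6 and 164 times KRT6A. AC055736.2, at the KRT6B locus, was at 655 and 107 FPKM in wtBRCA1 cells and at 98.6 and 18.5 in vector cells, between 16.7 and 83.6 times KRT6B. AC055736.1, at the KRT5 locus, was at 6954 and 9019 FPKM in wtBRCA1 cells and at 1124 and 750 in vector cells, between 9.20 and 48.5 times KRT5. These 3 identifiers are not among the GENCODE 29 genes, so their lengths and strands are not given here.

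AC019349.5, at the KRT13 locus, was at 9.54 and 16.6 FPKM in wtBRCA1 cells under OTX-015 and DMSO, and at 13558 and 18038 in vector cells, between 4.43 and 6.46 times KRT13. Its identifier is an antisense gene of GENCODE 29 on the plus strand, and all 476 of its exon bases lie within exon bases of KRT13. The sources used here do not say whether the authors' counting used strand, so reads of KRT13 and of this entry cannot be told apart. All 4 entries differed between the lines in the same direction as their keratin and passed the test, with limma effects of 1.81 ± 0.30 (adjusted p = 0.00716), 2.60 ± 0.27 (adjusted p = 0.000779), 3.11 ± 0.21 (adjusted p = 6.24e-05) and -10.16 ± 0.22 log2 (adjusted p = 1.91e-08) at the KRT6A, KRT6B, KRT5 and KRT13 loci. The line direction of these 4 keratins was that of their locus entries. Keratin and entry may share reads, so this is not an independent check of the keratin differences. The absolute levels of the keratins, and the ratios between partners and between types given above, may depend on how reads were divided.

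**Figure D3:**
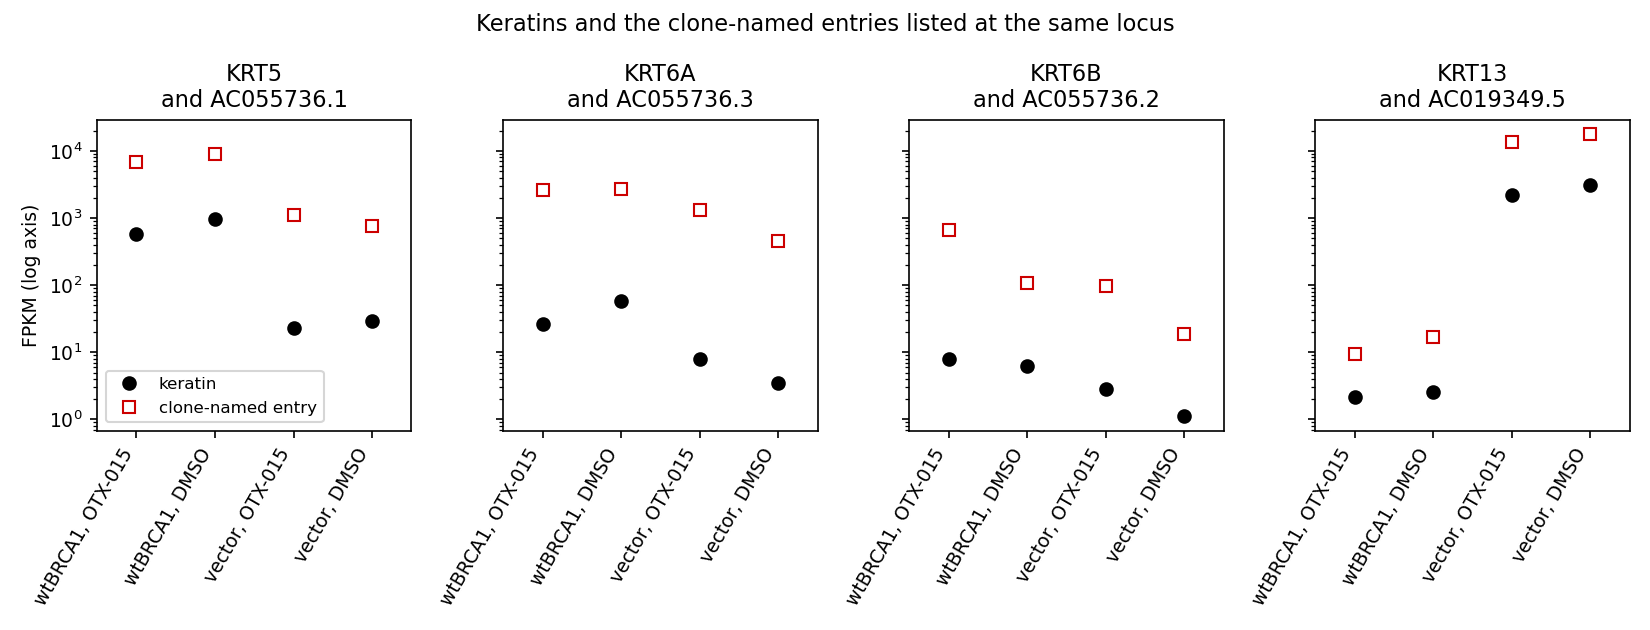
FPKM (vertical log axis) of 4 keratins (filled circles) and of the clone-named entry listed at the same locus (open squares) in the 4 libraries, 1 point per library. Each entry lies above its keratin in every library, by 4.43 to 164 times.

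The comparison of OTX-015 with DMSO asks which keratins a BET inhibitor changed in each line. On the log2(FPKM + 1) scale, 2 of 9 members were at least 2-fold apart in wtBRCA1 cells (26.4% of all genes), 0 higher (12.9%) and 2 lower (13.4%). In vector cells 5 were (25.7% of all genes), 4 higher (13.0%) and 1 lower (12.7%). With equal sums of FPKM 3 were higher and 3 lower in vector cells, for which the share over all genes was not counted. In the limma fit over both lines 2 of 9 passed (6.32% of all genes): KRT16 rose (1 of 9, against 3.66% of all genes, 669) and KRT15 fell (1 of 9, against 2.67%, 488), and the other 7 did not pass. With each library rescaled to the same sum of FPKM, an alternative chosen after seeing the data, the median of all genes shifted by -0.44 log2 in wtBRCA1 cells and -0.49 in vector cells. The counts over all genes were then 114 that rose and 1322 that fell. The median difference of the 9 members was -0.18 log2 in wtBRCA1 cells and 0.86 in vector cells, against 0 over all genes kept in each line.

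KRT15 had the largest common OTX-015 effect of the 9 members and the largest difference in wtBRCA1 cells, while in vector cells KRT16 and KRT17 differed by more. Its level was 0.0463 times the DMSO level in wtBRCA1 cells and 0.276 times in vector cells, so the lines were far apart under DMSO and near each other under OTX-015. It fell by 3.07 ± 0.52 on the log2 scale over both lines (SE, limma adjusted p = 0.0124). The call was kept in 5 of 10 other settings, with adjusted p from 0.0281 to 0.506 and effects from -3.70 to -2.81 log2. No other entry of at least 10 FPKM overlaps the KRT15 locus.

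TP63, the transcription factor that maintains basal epithelial cells, was picked with its values already known. It was listed at 0 under OTX-015 and at 9.93 FPKM under DMSO in wtBRCA1 cells, and at 0 and 0.147 FPKM in vector cells. Its common OTX-015 difference of -1.82 ± 0.76 log2 did not pass (SE, limma adjusted p = 0.186). Like KRT15, TP63 was highest in wtBRCA1 cells under DMSO, and its part in the KRT15 difference was not tested.

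KRT16 was at 1.94 times the DMSO level under OTX-015 in wtBRCA1 cells and at 4.71 times in vector cells. Its common effect was 1.59 ± 0.30 log2 (SE, limma adjusted p = 0.02). The call held in 2 of 10 other settings and was lost with a pseudocount of 5, an FPKM filter of 5, no filter, median-of-ratios or quantile scaling, equal sums, no mean-variance trend, or the line term left out, with adjusted p from 0.0373 to 0.687. KRT17 was at 1.22 times the DMSO level in wtBRCA1 cells and at 5.92 times in vector cells, the largest ratio but 1 among the members there, and its common difference of 1.42 ± 0.42 log2 did not pass (limma adjusted p = 0.076). As deposited, both OTX-015 libraries thus held more KRT16 and KRT17 than their DMSO libraries, but with equal sums the KRT17 difference in wtBRCA1 cells was -0.33 log2 (1.85 in vector cells). The summed FPKM of the libraries was also higher under OTX-015 in both lines, and its part in these differences was not tested. With equal sums the common differences were 0.93 log2 for KRT16 and 0.76 for KRT17, neither past the threshold.

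KRT6A and KRT14 had opposite differences in the 2 lines. KRT6A was at 0.452 times the DMSO level in wtBRCA1 cells and at 2.32 times in vector cells, and KRT14 at 0.605 times and 6.45 times. KRT14 stayed below 10 FPKM in every library, where the pseudocount makes a log2 difference smaller than the ratio. The entry at the KRT6A locus was at 0.983 times its DMSO level in wtBRCA1 cells and at 2.91 times in vector cells. Neither opposite direction was tested, since the difference between the lines' responses is the only residual of the design.

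KRT5 was at 0.584 times the DMSO level in wtBRCA1 cells and at 0.788 times in vector cells, a common difference of -0.55 ± 0.27 log2 that did not pass (SE, limma adjusted p = 0.261). With equal sums it passed, at -1.20 log2 (limma adjusted p = 0.0466). Its locus entry was at 6954 FPKM against 9019 in wtBRCA1 cells and at 1124 against 750 in vector cells, and with equal sums it was lower in both lines (-0.99 log2 in wtBRCA1 cells and -0.13 in vector cells). KRT13 was at 0.836 and 0.70 times the DMSO level (-0.35 ± 0.28 log2, limma adjusted p = 0.517) and KRT4 at 1.13 and 1.58 times (0.40 ± 0.33 log2, limma adjusted p = 0.524), and the KRT4 difference changed sign with equal sums. KRT6B was at 1.25 and 2.54 times (0.57 ± 0.41 log2, limma adjusted p = 0.455), whereas the entry at its locus, at 6.12 and 5.33 times, rose by 2.48 ± 0.27 log2 (limma adjusted p = 0.00203). The line difference of KRT4, KRT5 and KRT13 was thus several log2 units while their OTX-015 difference was below 1 in size in each line as deposited. With equal sums it was -1.39 log2 in wtBRCA1 cells and -1.02 in vector cells for KRT5, and -0.61 and -1.23 for KRT13.

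**Figure D4:**
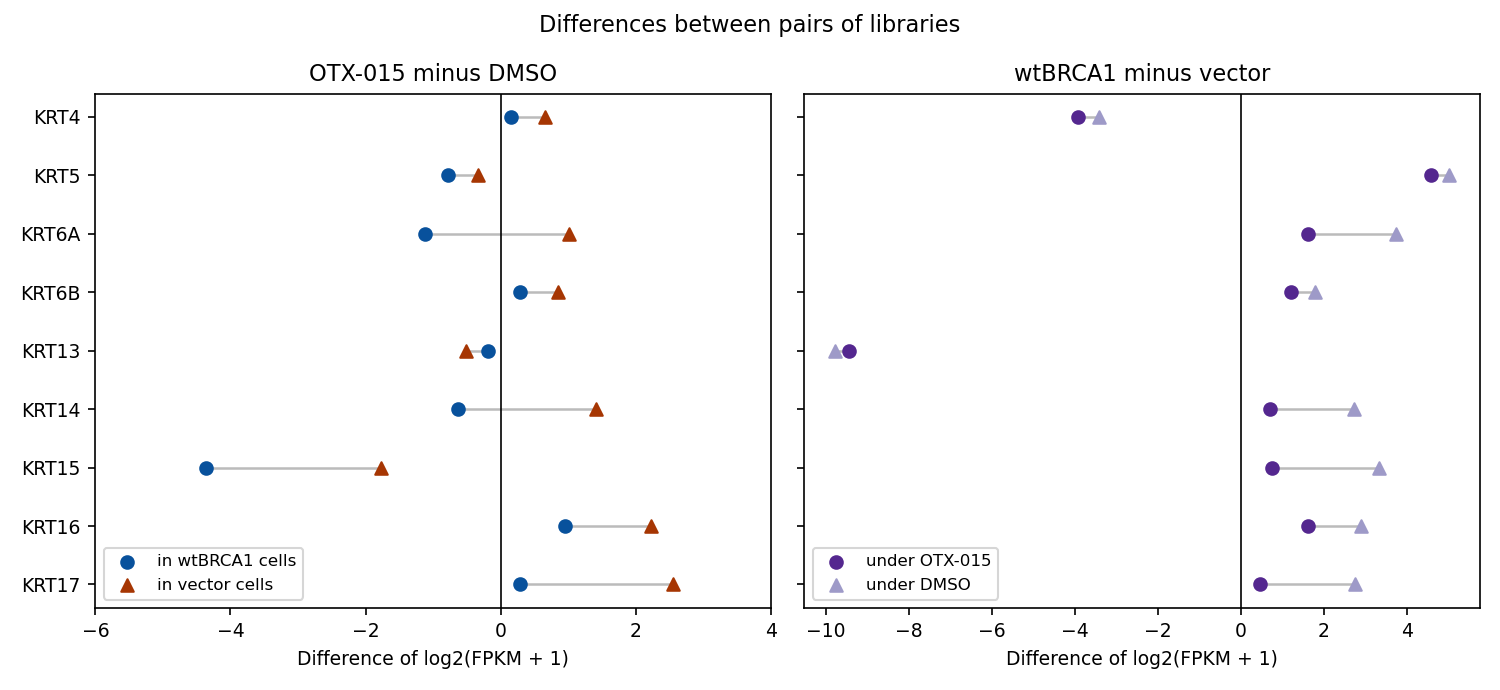
Difference of log2(FPKM + 1) (horizontal axis) for each keratin, as OTX-015 minus DMSO in the wtBRCA1 and vector lines (left) and as wtBRCA1 minus vector under OTX-015 and DMSO (right), 1 point per pair of libraries. KRT15 has the lowest points on the left, and on the right KRT4 and KRT13 lie below 0 and the other 7 above 0 in both treatments.

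All 7 keratins that were higher in wtBRCA1 cells were closer between the lines under OTX-015 than under DMSO. Their line differences were 4.57 and 5.01 log2 under OTX-015 and DMSO for KRT5, 1.61 and 3.74 for KRT6A, 1.21 and 1.78 for KRT6B, 0.69 and 2.73 for KRT14, 0.74 and 3.33 for KRT15, 1.61 and 2.88 for KRT16, and 0.46 and 2.74 for KRT17. KRT4 and KRT13 differed by -3.92 and -3.42 and by -9.45 and -9.78 log2. The difference of the responses, wtBRCA1 minus vector, was lowest for KRT15 (-2.60 log2) and KRT17 (-2.28). These differences of responses have no test, and the share of all genes closer between the lines under OTX-015 was not counted. The 7 were also grouped by their line difference in these same libraries, so their closeness under OTX-015 is a description only.

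The profile of a keratin over the 4 libraries was set against those of 10132 named genes of at least 5 FPKM, by the distance between log2 profiles centred on their own means. The genes closest to KRT13 were KRT81 (distance 2.45 log2) and the uroplakin UPK1B (3.19), and to KRT4 they were L1CAM (0.43) and CES1 (0.46). KRT15 was closest to MIR205HG (0.76), the host transcript of miR-205, and MAPK15 (0.89). MIR205HG was at 1.77 and 43.4 FPKM in wtBRCA1 cells under OTX-015 and DMSO and at 0.567 and 8.04 in vector cells. KRT5 was closest to CLEC7A (0.48) and CHI3L2 (0.50), and TLDC2 was among the genes near KRT14 (0.36). KRT6A was closest to IGFBP5 (0.44) and CCL5 (0.50), and KRT6B to B2M (0.087) and GAA (0.12). KRT16 was closest to HIST1H2AC (0.38) and LRIG1 (0.40), and KRT17 to RABGAP1L (0.33) and CBWD7 (0.37). With 4 libraries, such likeness is a description only.

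Genes that anchor keratin filaments at desmosomes and hemidesmosomes were in part higher in wtBRCA1 cells. Of 17 that passed the filter, 7 rose between the lines (4.88% of all genes did), 1 fell (3.41%) and 9 did not pass, with a median of 0.71 log2 under OTX-015 and 0.97 under DMSO. DSC3, a cadherin of desmosomes, reached 8.0 and 18.8 FPKM in wtBRCA1 cells under OTX-015 and DMSO, against 0.0755 and 0 in vector cells, the plaque protein PKP1 8.56 and 30.1 against 0.563 and 1.02, and the hemidesmosomal collagen COL17A1 9.21 and 15.8 against 1.58 and 2.02. The 1 that fell was the plakoglobin gene JUP, at 84.0 and 75.5 FPKM in wtBRCA1 cells against 276 and 160 in vector cells. The integrin gene ITGA6 was at 202 and 312 FPKM in wtBRCA1 cells and at 212 and 128 in vector cells and did not pass. Under OTX-015, 1 of the 17 rose (3.66% of all genes did), the keratin linker PLEC, by 1.46 ± 0.24 log2 (SE, limma adjusted p = 0.0122), and none fell (2.67%).

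Of 16 regulators of stratified epithelium that passed the filter, 1 fell between the lines, GRHL3 (3.41% of all genes fell), and 1 rose under OTX-015, the cell cycle inhibitor SFN (3.66% of all genes rose), which is near the share over all genes. The others did not pass, among them ELF3, at 116 and 181 FPKM in wtBRCA1 cells under OTX-015 and DMSO and at 230 and 80.9 in vector cells, and TFAP2A, at 41.1 and 16.6 against 56.9 and 36.9. GRHL3 was at 0.936 and 0.92 FPKM in wtBRCA1 cells under OTX-015 and DMSO and at 3.91 and 6.89 in vector cells. SFN was at 552 and 289 FPKM in wtBRCA1 cells under OTX-015 and DMSO and at 368 and 113 in vector cells. Of 11 genes of the suprabasal and cornified layers that passed the filter, 2 rose (4.88% of all genes did) and 2 fell (3.41%) between the lines. The 2 that fell were MAL, a membrane protein of suprabasal cells (2.09 and 1.95 FPKM in wtBRCA1 cells against 138 and 97.9 in vector cells), and SCEL (1.29 and 5.07 against 7.22 and 29.2), and the protease inhibitor CSTA and the secreted protein SBSN rose. Under OTX-015, 1 of the 11 rose (3.66%), SBSN, which was named after its values were seen, and 2 fell (2.67%), SCEL and SPRR1A. SPRR1B did not pass in either comparison, at 14.2 and 20.1 FPKM in wtBRCA1 cells and 8.99 and 3.85 in vector cells. SPRR1A was listed at 0 in both OTX-015 libraries and at 6.23 and 5.61 FPKM under DMSO in wtBRCA1 and vector cells.

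Of 7 genes that accompany KRT6 and KRT16 in activated epithelium and passed the filter, LCN2, S100A8 and S100A9 rose between the lines (4.88% of all genes did), PI3 fell (3.41%) and 3 did not pass. S100A9, a calcium-binding protein, was at 857 and 135 FPKM in wtBRCA1 cells under OTX-015 and DMSO and at 104 and 72.2 in vector cells. Under OTX-015 the elastase inhibitor PI3 rose by 1.70 ± 0.18 log2 (SE, limma adjusted p = 0.00183), and the kallikrein KLK6 fell, 1 of the 7 each way (3.66% and 2.67% of all genes). Keratins of simple epithelium went the other way from KRT5 between the lines, with KRT7, KRT8, KRT18 and KRT19 lower in wtBRCA1 cells (4 of 6 fell, against 3.41% of all genes, and 0 rose, against 4.88%). Under OTX-015, KRT8 rose and KRT7 and KRT23 fell (1 and 2 of 6, against 3.66% and 2.67%). KRT8, their main type II member, was at 4476 and 3185 FPKM in wtBRCA1 cells under OTX-015 and DMSO and at 23339 and 8160 in vector cells, so it exceeded the summed level of the 9 keratins in every library. Of 14 other keratins of stratified epithelium 5 passed the filter, and of 17 pseudogenes of such keratins 3 did, and none of these was called in either comparison. Among them KRT80 was at 6.16 and 11.9 FPKM in wtBRCA1 cells and at 6.37 and 16.6 in vector cells, KRT9 reached 4.47 FPKM and KRT16P6 1.08.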

How the data were processed

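Poly(A)-selected RNA of 4 HCC1937 groups, 1 library each, was sequenced from a directional kit, per the labels' protocols. The deposited FPKM values come from the authors' processing, for which the submitters' processing notes name TopHat2, Cufflinks and hg38. Versions, annotation and scaling are not given in the sources used here. The files hold no counts, so depth is unknown, and low values (below 0.3 FPKM) showed no common step (at most 4 of 588 genes had the same ratio to the vector DMSO library after rounding). A number of 7515 short structural RNA genes, by GENCODE 29 type or symbol, were left out, 68 repeated symbols were summed, and 18294 genes of at least 1 FPKM in a library were kept as log2(FPKM + 1).

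All genes kept went into 1 additive fit of line plus treatment in limma 3.58.1 under R 4.3.3, with a mean-variance trend, Benjamini-Hochberg adjustment and a threshold of 0.05. The verbs rose and fell are used for genes that passed it. Single pairs of libraries had no test and are given at a log2 difference of at least 1. On simulated data that met the assumptions of the fit, effects were recovered without bias, while the share of false calls varied between draws and could exceed the threshold. Alternatives covered the pseudocount, filter, scaling, trend, robust estimation and the other factor left out. The members, lists, motifs and rules were chosen with earlier results of these data known: all members are named, and from each list the 3 highest genes and up to 3 called genes with the largest effects, plus markers listed at 0, TP63 and, to account for counts, KRT23 and SBSN. Shared 50-base windows were counted on GENCODE 29 transcripts. File loci were converted to 1-based starts. Python 3.11.15, pandas 2.3.3, numpy 2.4.6 and matplotlib 3.10.9 were used. A marker gene and a gene of the likeness comparison are not reported here.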

Additional observations from a re-analysis of the deposited data

Results flagged for a closer look

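OTX-015 went with opposite directions in the 2 lines for a pair of keratins and for a pair of entries at keratin loci, judged from 1 pair of libraries per line, and none of these differences was tested. KRT6A was lower under OTX-015 than under DMSO in wtBRCA1 cells (26.3 against 58.1 FPKM) and higher in vector cells (7.97 against 3.43), a difference of responses, wtBRCA1 minus vector, of -2.13 log2. For KRT14 (5.16 against 8.53 FPKM in wtBRCA1 cells and 2.82 against 0.438 in vector cells) it was -2.04 log2. The entry AC055736.3 at the KRT6A locus had a difference of responses of -1.56 log2 (2659 FPKM under OTX-015 against 2705 under DMSO in wtBRCA1 cells and 1306 against 449 in vector cells). The entry AC055736.1 at the KRT5 locus had -0.96 log2. With equal sums of FPKM, an alternative chosen after seeing the data, AC055736.1 was lower under OTX-015 in both lines, while KRT6A, KRT14 and AC055736.3 were still lower in wtBRCA1 cells and higher in vector cells.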

How the results depend on the processing

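The calls of KRT4, KRT5 and KRT13 between the lines held in all 10 alternatives, of KRT16 in 8 and of KRT6A in 6. The 7 members called between the lines came to 4 with no filter, 4 after quantile normalization, 3 without the mean-variance trend and 3 with treatment left out, and to 5 in the other 6 settings. Line calls over all genes were 502 of 24289 with no filter. Of 18294 genes they were 713 after quantile normalization, 173 without the trend and 57 with treatment left out. The 2 members called for OTX-015 came to 1 at pseudocount 5, 1 when at least 5 FPKM was asked for, 1 after median-of-ratios scaling and 1 with robust estimation, and to 0 with no filter, 0 after quantile normalization, 0 without the trend and 0 with line left out. OTX-015 calls over all genes were 452, 523, 592 and 1120 in the settings with 1 member. In those with 0 they were 81, 67, 4 and 1, in the same order. Rescaling to equal sums, chosen after seeing the data, gave 2, KRT5 and KRT15, both lower. Members at least 2-fold apart under OTX-015 in vector cells numbered 3 in place of 5 with a pseudocount of 5, and in wtBRCA1 cells 4 in place of 2 with equal sums. The shares of all genes at least 2-fold apart in these settings were not counted. With equal sums the OTX-015 effect of KRT4 was -0.22 log2 and that of KRT14 -0.063, and with a pseudocount of 0.1 that of KRT6A was 0.025, each opposite in sign to the value as fitted and not past the threshold. The cause was not tested. Over all genes the 1157 OTX-015 calls ranged from 1 to 1436 and the 1515 line calls from 57 to 1478 in these settings. No paired analysis was possible because each group has 1 library, and leaving out a library leaves the fit no residual degree of freedom. Depth is unknown, so no limit is set for low values such as KRT14.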
